A study of Mus musculus with 18 samples.

Results

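Smooth muscle surrounds the airways and the larger vessels of the lung and contracts through actin and myosin filaments. The genes described here are 10 genes of the smooth muscle contractile program, Acta2, Actg2, Tagln, Myh11, Cnn1, Des, Myocd, Lmod1, Smtn and Myl9, chosen by symbol from the 23416 genes of each table, and all 10 were measured in every sample. RNA-seq was performed on whole lungs of mouse embryos 14.5 days after mating (days post coitus, dpc), when the airways branch. In the Rptor line, 3 Rptor-deficient lungs (Rptorf/f; ShhCre/+) were compared with 3 control lungs (Rptorf/+; ShhCre/+). The Tfam line held 3 Tfam-deficient (Tfamf/f; ShhCre/+) and 3 control lungs (Tfamf/+; ShhCre/+). The Cox10 line held 3 Cox10-deficient (Cox10f/f; ShhCre/+) and 3 control lungs (Cox10f/+; ShhCre/+). Rptor encodes a component of mTOR complex 1, Tfam a factor that maintains mitochondrial DNA, and Cox10 an assembly enzyme of cytochrome c oxidase. All 18 lungs carried the ShhCre allele, in which Cre is made from the Shh locus and acts in the lung epithelium, so that the controls shared Cre and lacked 1 functional allele of the targeted gene in that epithelium. The authors label lungs homozygous for ShhCre as Shh-/-, so that every lung here, controls included, had 1 functional Shh allele. Smooth muscle arises from the mesenchyme, where ShhCre is not known to act. A whole lung mixes both tissues with vessels and any heart or tracheal tissue left attached.

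In the developing lung, mesenchymal cells next to the epithelial tubes turn into smooth muscle under signals from the epithelium, such as Shh. Myocd (myocardin) is a cofactor that binds serum response factor (SRF), and SRF binds a DNA element called the CArG box, CC and GG on either side of 6 bases of A or T, near many contractile genes. Acta2 and Actg2 encode smooth muscle actins, Myh11 the smooth muscle myosin heavy chain and Myl9 a myosin regulatory light chain. Tagln (transgelin), Cnn1 (calponin), Lmod1 (leiomodin) and Smtn (smoothelin) encode actin-associated proteins, and Des encodes desmin, an intermediate filament protein of muscle. Several of the 10 genes, among them Acta2, Tagln, Cnn1, Des and Myocd, are also expressed in vascular smooth muscle or in the embryonic heart. None of the 10 marks airway smooth muscle alone.

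In RefSeq on the GRCm38.p6 assembly, Myocd lies at chr11:65173608-65269989, Acta2 at chr19:34240336-34255585, Actg2 at chr6:83512909-83536251 and Myh11 at chr16:14194527-14292188. Tagln lies at chr9:45929628-45936058, Cnn1 at chr9:22099221-22109221, Lmod1 at chr1:135324813-135368065, Des at chr1:75360292-75368579, Myl9 at chr2:156775408-156781657 and Smtn at chr11:3517522-3539292. Myocd, Acta2, Actg2, Myh11, Tagln and Smtn are on the minus strand and the other 4 genes on the plus strand. A promoter window of 250 bases before the RefSeq start was at hand for 6 of the 10 genes (Acta2, Myl9, Cnn1, Lmod1, Smtn and Des), and those of Actg2, Tagln, Myh11 and Myocd were not analysed here. Both strands were searched for the CArG box, and also for boxes with 1 core base that is G or C. The exact box was found in 1.47% of the 32851 RefSeq windows of this length, and the box with at most 1 such base in 8.59%. Acta2 and Myl9 were the 2 genes with matches, and each match is shown with 10 bases on either side because it shows the kind of element through which Srf and Myocd are known to act. Starts are those of the transcripts that the RefSeq windows were taken from, and for Acta2, Myl9 and Cnn1 they lie inside the range of the gene. The capitals mark the match.
Myl9, exact box, 161 to 152 bases before the start (chr2:156775293-156775322, plus strand): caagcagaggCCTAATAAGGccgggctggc
Myl9, 1 core base off, 99 to 90 bases before the start (chr2:156775355-156775384, plus strand): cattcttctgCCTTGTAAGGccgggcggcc
Acta2, 1 core base off, 84 to 75 bases before the start (chr19:34255438-34255467, minus strand): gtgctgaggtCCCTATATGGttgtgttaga
Acta2, 1 core base off, 34 to 25 bases before the start (chr19:34255388-34255417, minus strand): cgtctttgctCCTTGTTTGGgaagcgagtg
The Cnn1, Lmod1, Smtn and Des windows held no match, which says only that these letters are not in those 250 bases.

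The deposited values are read counts scaled to a common depth within each line, called normalised reads below. They summed to 27727200 at the least and 29611100 at the most in a sample, and replicates of a group correlated at 0.991 to 0.995 on the log2 scale. Cox10-deficient replicate 3 stood apart from its group, with a chi-square per gene of 27.7 and 31.8 against the other 2 lungs, which differed from each other by 8.24. Against Rptor-deficient replicates 1, 2 and 3 it was 37.6, 23.4 and 30.6, across tables that were scaled separately. Against Rptor control replicates 1, 2 and 3 it was 31.0, 31.9 and 28.3. Relative to its controls, the mean log2 value of this lung was 0.064 for the epithelial list (-0.74 and -0.50 in its group mates), 0.90 for the vascular list (0.18 and 0.082) and 0.70 for the endothelial list (0.12 and 0.0088). Rptor-deficient replicate 1 differed from its group mates by 21.6 and 27.2 per gene, and all other pairs within a group by 4.11 to 18.7. For the floxed genes themselves the difference between deficient and control lungs did not pass (adjusted p = 0.570 by limma for Rptor, 0.472 for Tfam and 0.979 for Cox10), so that the labels could not be checked by them in whole lungs. Deficient and control therefore mean lungs labelled so.

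Most smooth muscle genes were lower in the deficient lungs of the Rptor and Tfam lines. In the Rptor line 6 of the 10 genes fell (Myocd, Actg2, Myh11, Tagln, Cnn1 and Lmod1), whereas Acta2 rose, a direction that held under the deposited scaling but reversed when samples were scaled to mesenchymal genes. In the Tfam line 6 of the 10 fell (Myocd, Acta2, Actg2, Myh11, Tagln and Lmod1) and none rose. In the Cox10 line Myocd alone fell. These calls are at a limma adjusted p below 0.05, with adjustment over all genes tested in the line. They are set against a background in which 34.8% of the 14937 genes tested passed in the Rptor line (18.2% lower, 16.6% higher), 4.66% of 15050 in the Tfam line (2.63% lower, 2.03% higher) and 0.475% of 14934 in the Cox10 line (0.335% lower, 0.141% higher). With the replicate number as a block, which pairs the samples in the Rptor line, 8 of the 10 genes passed there, 7 lower and 1 higher, because Myl9 also passed (adjusted p = 0.0206), and 38.6% of all genes passed. In bulk RNA, fewer smooth muscle cells and less RNA per cell cannot be told apart. The median log2 fold change (log2FC, deficient over control) of the 10 genes was -0.85 for the Rptor deletion, -0.46 for Tfam and -0.71 for Cox10, beside 0.0082, 0.00095 and 0.0014 for all genes tested. Samples scaled to their mesenchymal genes gave 10, 7 and 6 of the 10 genes lower in the Rptor, Tfam and Cox10 lines, where 83.9%, 5.63% and 1.45% of all genes passed as lower, since this scaling moved the median of all genes to -0.85, -0.18 and -0.27. With all 18 samples in one fit 7, 1 and 1 of the 10 passed, against 40.8%, 2.74% and 2.25% of all genes. Without a mean-variance trend 3, 4 and 0 passed, against 29.8%, 3% and 0.288%. The low median in the Cox10 line came with a wide spread between its deficient lungs, and 9 of its 10 genes did not pass. At an unadjusted p below 0.05 there were 8 of the 10 in this line, Des higher and the other 7 lower, against 13% of all genes. Without deficient replicate 3, the lung that stood apart, 2 of the 10 fell there (Myocd and Acta2), and 255 genes in all passed (1.72%).

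**Figure D1:**
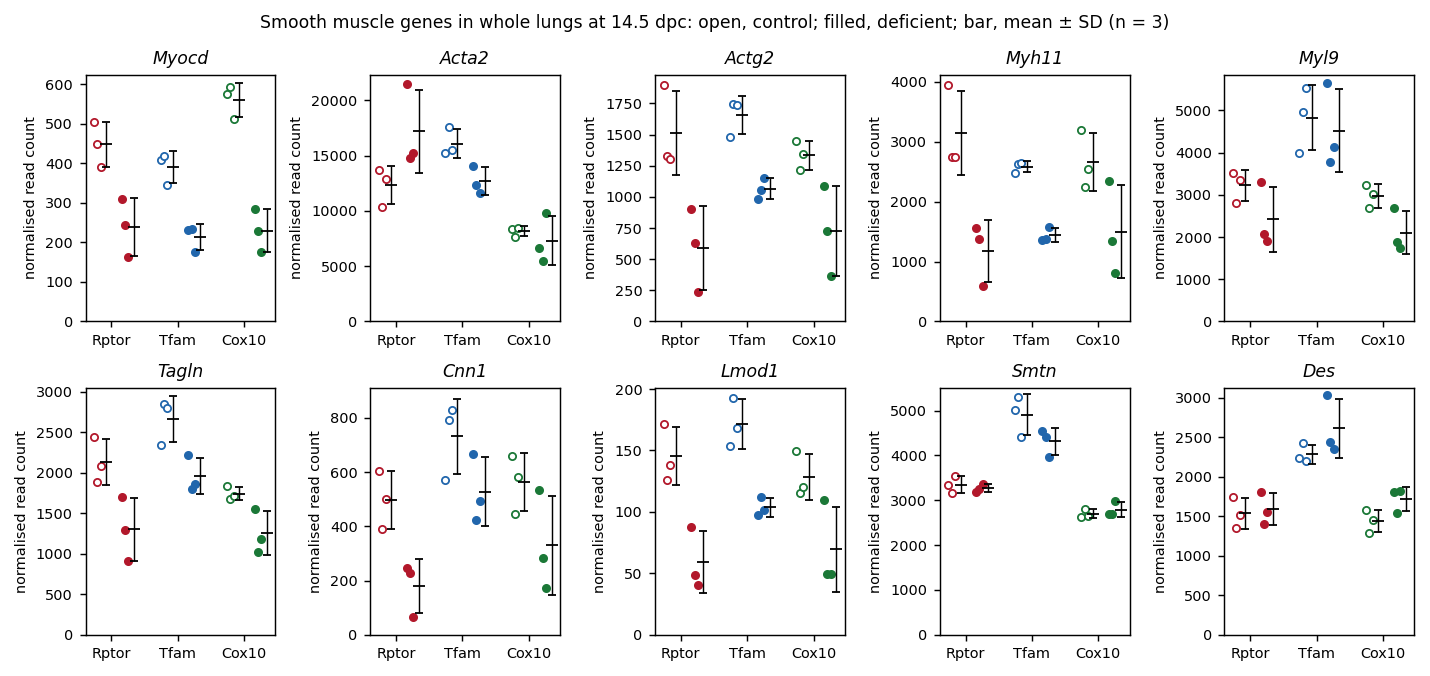
Normalised read count of the 10 genes in each lung, with controls as open and deficient lungs as filled points and bars for the mean and SD (n = 3) of each group, 6 groups in 3 lines. Myocd did not overlap between deficient and control lungs in any of the 3 lines, while Smtn and Des overlapped in all 3.

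**Figure D2:**
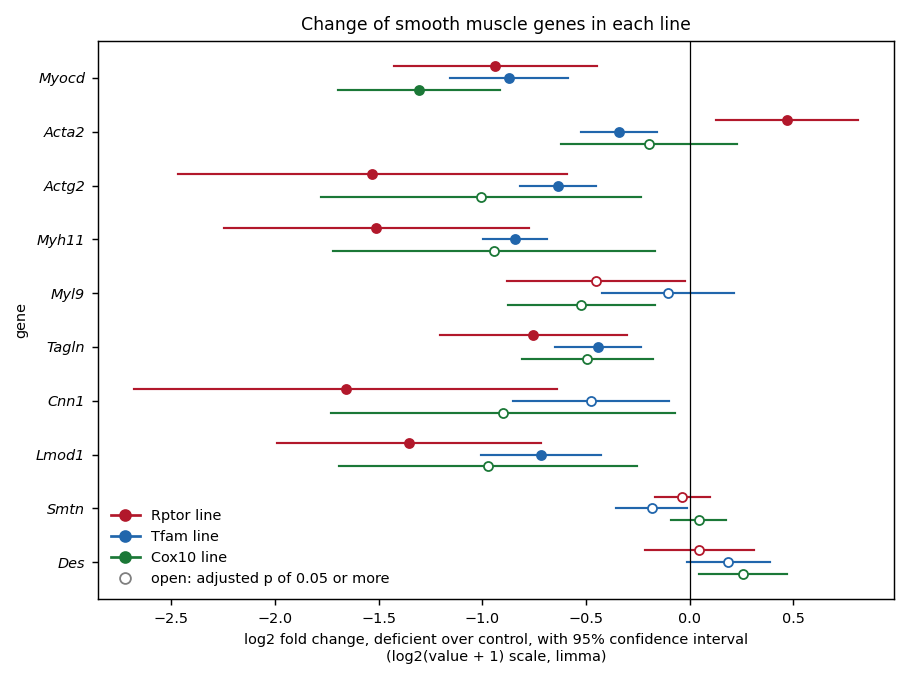
Log2 fold change (log2FC) of each gene in deficient over control lungs with its 95% confidence interval, with filled points for an adjusted p below 0.05. The estimate for Acta2 in the Rptor line is 0.47 under the deposited scaling and reverses to -0.39 when samples are scaled to mesenchymal genes, and the intervals in the Tfam line are the narrower ones for Actg2, Myh11, Cnn1 and Lmod1.

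Myocd, the cofactor upstream of the contractile genes, was the gene of the 10 that fell in all 3 lines. Its values were 505, 449 and 390 normalised reads in Rptor controls and 311, 245 and 164 in Rptor-deficient lungs. The values were 407, 418 and 344 in Tfam controls and 230, 234 and 176 in Tfam-deficient lungs. It had 576, 593 and 513 in Cox10 controls and 285, 229 and 175 in Cox10-deficient lungs. Every deficient lung lay below every control of its line, and the mean level in deficient lungs was 53.6%, 54.7% and 41.0% of the control mean in the Rptor, Tfam and Cox10 lines. The log2FC values were -0.94 (SE 0.22, adjusted p = 0.0108 by limma), -0.87 (SE 0.13, adjusted p = 0.00288 by limma) and -1.31 (SE 0.17, adjusted p = 0.0265 by limma), respectively. Groups without overlap and with deficient lungs lower were seen in 26%, 11.8% and 10.8% of all genes tested in these lines. The Myocd call held in all 6 fits that each left out a lung in the Rptor line and in all 6 in the Tfam line, but in 2 of 6 in the Cox10 line. There the adjusted p was 0.179, 0.156 and 0.179 without control replicates 1, 2 and 3 and 0.0772 without deficient replicate 2, with log2FC values from -1.48 to -1.13. Under the deposited scaling no difference between lines in the effect on Myocd passed, and that between the Rptor and Tfam lines was -0.065. With scaling to mesenchymal genes these lines differed by -0.74 on the log2 scale (adjusted p = 0.0406 by limma), as they did for 69.8% of all genes. That scaling moved the median of all genes to -0.85 in the Rptor line and to -0.18 in the Tfam line.

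The smooth muscle actins went different ways in the Rptor line under the deposited scaling. Both were lower when samples were scaled to mesenchymal genes (log2FC -2.39 for Actg2 and -0.39 for Acta2). Actg2, the enteric or gamma smooth muscle actin, had 1899, 1327 and 1303 normalised reads in Rptor controls and 902, 627 and 239 in Rptor-deficient lungs, a log2FC of -1.53 (SE 0.41, adjusted p = 0.0208 by limma). Tfam controls had 1480, 1748 and 1739 of Actg2 and Tfam-deficient lungs 986, 1054 and 1152, a log2FC of -0.64 (SE 0.083, adjusted p = 0.00135 by limma). The values were 1446, 1216 and 1340 in Cox10 controls and 1090, 728 and 367 in Cox10-deficient lungs. Deficient lungs were below controls without overlap in all 3 lines, but the spread among the Cox10-deficient lungs was wide and the log2FC of -1.0 (SE 0.33) did not pass (adjusted p = 0.302 by limma), and was -0.58 without deficient replicate 3. The Rptor call was lost without control replicate 1 (adjusted p = 0.0713) and without control replicate 2 (adjusted p = 0.0579), and without deficient replicate 3 the log2FC was -0.98.

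Acta2, the alpha smooth muscle actin used as a general marker of smooth muscle, had 13693, 10378 and 12900 normalised reads in Rptor controls and 21504, 14794 and 15272 in Rptor-deficient lungs. All 3 deficient lungs were above the 3 controls, as were those of 24.3% of all genes tested. The log2FC was 0.47 (SE 0.15, adjusted p = 0.0410 by limma) under the deposited scaling and reversed to -0.39 when each sample was scaled to its mesenchymal genes. That scaling moved the median of all genes in this line to -0.85, so that Acta2 lay 0.46 above the median gene on the log2 scale. The call was lost without control replicate 2 (adjusted p = 0.145), control replicate 3 (0.0733) or deficient replicate 1 (0.0538, log2FC 0.30). Acta2 had 15214, 17548 and 15483 normalised reads in Tfam controls and 14075, 12381 and 11655 in Tfam-deficient lungs, a fall without overlap (log2FC -0.34, SE 0.083, adjusted p = 0.0419 by limma) that was lost without control replicate 1 or 2 or deficient replicate 2 or 3 (adjusted p = 0.0878, 0.129, 0.144 and 0.169). Cox10 controls had 8324, 7657 and 8473 and Cox10-deficient lungs 6607, 5511 and 9839, where 2 deficient lungs lay below and 1 above all controls and the log2FC of -0.20 (SE 0.18) did not pass (adjusted p = 0.651 by limma). Without deficient replicate 3, the high lung, it was -0.43 and passed (adjusted p = 0.0396), and without deficient replicate 2 it was -0.014.

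Of the myosin genes, the heavy chain Myh11 fell in 2 lines, and the light chain Myl9 passed in none without the replicate block and in the Rptor line with it. Myh11 had 3955, 2741 and 2747 normalised reads in Rptor controls and 1568, 1370 and 598 in Rptor-deficient lungs. The values were 2479, 2628 and 2645 in Tfam controls and 1363, 1385 and 1583 in Tfam-deficient lungs. The groups were apart in both lines, with deficient means at 37.4% and 55.9% of the control means, and the log2FC values were -1.51 (SE 0.32, adjusted p = 0.00807 by limma) and -0.84 (SE 0.069, adjusted p = 6.34e-05 by limma). Both calls held in all 6 fits that each left out a lung. Myh11 had 3189, 2244 and 2545 in Cox10 controls and 2352, 1343 and 810 in Cox10-deficient lungs, in which deficient replicate 1 overlapped the controls. The log2FC was -0.94 (SE 0.34, adjusted p = 0.331 by limma), and -0.57 without deficient replicate 3. Myl9 had 3518, 2806 and 3353 in Rptor controls and 3298, 2061 and 1897 in Rptor-deficient lungs, with a log2FC of -0.45 (SE 0.19, adjusted p = 0.0937 by limma, and 0.0206 with the replicate block). It had 3994, 4956 and 5533 in Tfam controls and 5645, 3782 and 4130 in Tfam-deficient lungs (log2FC -0.10, adjusted p = 0.775 by limma). Cox10 controls had 3221, 2680 and 3014 and Cox10-deficient lungs 2686, 1873 and 1745 (log2FC -0.52, adjusted p = 0.252 by limma). The Myl9 groups overlapped in each line. Without deficient replicate 1, the lung within the range of its controls, Myl9 passed in the Rptor line (log2FC -0.70, adjusted p = 0.000780) and in the Cox10 line (-0.71, adjusted p = 0.0273). Without Rptor-deficient replicate 3 the Rptor value was -0.30 (adjusted p = 0.250).

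Of the actin-associated genes, Tagln and Lmod1 fell in 2 lines, Cnn1 in 1 and Smtn in none. Tagln had 2440, 1882 and 2088 normalised reads in Rptor controls and 1696, 1291 and 912 in Rptor-deficient lungs, a log2FC of -0.75 (SE 0.20, adjusted p = 0.0191 by limma). The values were 2341, 2854 and 2799 in Tfam controls and 2213, 1804 and 1860 in Tfam-deficient lungs, a log2FC of -0.44 (SE 0.094, adjusted p = 0.0222 by limma). It had 1831, 1673 and 1719 in Cox10 controls and 1555, 1025 and 1184 in Cox10-deficient lungs. The Cox10 groups did not overlap, but the log2FC of -0.49 (SE 0.14) did not pass (adjusted p = 0.223 by limma). The Tagln call was lost in the Rptor line without control replicate 1 or 3 (adjusted p = 0.0683 and 0.0501) and in the Tfam line without control replicate 2 or deficient replicate 2 or 3 (adjusted p = 0.0731, 0.0957 and 0.0993). In the Cox10 line it passed without deficient replicate 1 (adjusted p = 0.0293). In GENCODE, 62.4% of the exon bases of Tagln are shared with the antisense gene Gm48529, and whether the counting used strand is not given in the sources used here, so that reads of both genes may be mixed.

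Lmod1, which helps to start actin filaments, was the lowest of the 10 genes. It had 172, 126 and 138 normalised reads in Rptor controls and 87.7, 48.5 and 40.5 in Rptor-deficient lungs, a log2FC of -1.35 (SE 0.28, adjusted p = 0.00681 by limma). Tfam controls had 153, 193 and 168 and Tfam-deficient lungs 97.3, 112 and 102, a log2FC of -0.72 (SE 0.13, adjusted p = 0.00989 by limma). Both falls were without overlap and were called in all 6 fits without a lung. For Lmod1 the values were 150, 115 and 120 in Cox10 controls and 110, 49.3 and 49.4 in Cox10-deficient lungs, again without overlap, but the log2FC of -0.97 (SE 0.31) did not pass with all samples (adjusted p = 0.286 by limma) and passed without deficient replicate 1 (0.0409). Cnn1, an inhibitor of actomyosin activity, had 602, 389 and 502 in Rptor controls and 248, 227 and 65.2 in Rptor-deficient lungs. Its log2FC of -1.66 (SE 0.45, adjusted p = 0.0211 by limma) was the largest estimate of the 10 genes in that line. The call was lost without control replicate 1 or 3 (adjusted p = 0.0703 and 0.0587), and without deficient replicate 3 the log2FC was -1.04. Cnn1 had 572, 793 and 828 in Tfam controls and 668, 423 and 494 in Tfam-deficient lungs (log2FC -0.48, adjusted p = 0.167 by limma), where it passed without deficient replicate 1 (adjusted p = 0.0451). Cox10 controls had 658, 447 and 581 and Cox10-deficient lungs 532, 284 and 173 (log2FC -0.90, adjusted p = 0.360 by limma, and -0.51 without deficient replicate 3). Both pairs of groups overlapped. Smtn ranged from 3172 to 3543 normalised reads in Rptor controls and from 3186 to 3361 in Rptor-deficient lungs. Its log2FC was -0.036 in this line (adjusted p = 0.667 by limma), with a 95% confidence interval from -0.17 to 0.10. For the Tfam deletion it was -0.18 (adjusted p = 0.255 by limma, and 0.0436 without control replicate 3). For the Cox10 deletion it was 0.044 (adjusted p = 0.750 by limma), a sign that reversed with scaling to mesenchymal genes. Of the exon bases of Smtn 16.3% are shared with Gm11946 on the other strand, with the same limit as for Tagln.

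Des did not pass in any line, and its estimates were above 0 in all 3 under the deposited scaling but below 0 in the Rptor and Cox10 lines when samples were scaled to mesenchymal genes. Des had 1745, 1351 and 1512 normalised reads in Rptor controls and 1806, 1400 and 1554 in Rptor-deficient lungs. It had 2233, 2419 and 2194 in Tfam controls and 3035, 2442 and 2349 in Tfam-deficient lungs. It had 1576, 1291 and 1448 in Cox10 controls and 1799, 1544 and 1818 in Cox10-deficient lungs. The log2FC values were 0.047, 0.18 and 0.26 (adjusted p = 0.781, 0.328 and 0.328 by limma), and the groups overlapped in each line. Without Tfam-deficient replicate 1, the high lung, the Tfam value was 0.071.

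Levels of different genes were set side by side per kilobase of GENCODE exon. In the controls Acta2 was the highest, at 5612, 7323 and 3712 normalised reads per kb in the Rptor, Tfam and Cox10 lines, followed by Myl9 at 2776, 4154 and 2557. Tagln, Actg2 and Smtn came next, with control means between 617 and 1340 normalised reads per kb, and Myh11 and Des followed with 340 to 608. Cnn1 was at 182 to 267, Myocd at 60.7 to 87.2 and Lmod1 at 32.5 to 43.4 normalised reads per kb. The composition of the program differed between lungs. The ratio of Acta2 to Myh11 within a sample, in normalised reads, was 3.46, 3.79 and 4.70 in Rptor controls and 13.7, 10.8 and 25.5 in Rptor-deficient lungs. It was 6.14, 6.68 and 5.85 in Tfam controls and 10.3, 8.94 and 7.36 in Tfam-deficient lungs. In the Cox10 line it was 2.61, 3.41 and 3.33 in controls and 2.81, 4.10 and 12.2 in deficient lungs. The ratio was higher without overlap in the deficient lungs of the Rptor and Tfam lines, and in the Cox10 line deficient replicate 3 stood far above the other samples. A ratio within a sample does not depend on the scaling and shows that Acta2 and Myh11 changed unequally, not which of them changed.

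To ask whether the lines differed, the effects of each pair of lines were compared in a fit of all 18 samples over the 14548 genes tested in every line. Acta2 was the single gene of the 10 whose effect differed, between the Rptor and Tfam lines, by 0.81 on the log2 scale (SE 0.24, 95% confidence interval 0.31 to 1.31, adjusted p = 0.0374 by limma). Of all genes, 11.2% differed between these lines. The Acta2 difference was called in 11 of 18 fits without a sample, with values from 0.64 to 0.91, and was lost without Rptor control replicate 2 or 3, Rptor-deficient replicate 1, Tfam control replicate 1 or 2, or Tfam-deficient replicate 2 or 3. With scaling to mesenchymal genes it was 0.13 (adjusted p = 0.547), and 9 of the 10 genes then differed between these lines, as did 69.8% of all genes. Between the Rptor and Cox10 lines, where 7.49% of all genes differed, Acta2 differed by 0.67 (SE 0.24, adjusted p = 0.10 by limma), which passed with the replicate block (adjusted p = 0.0273) and without Cox10-deficient replicate 3 (0.90, adjusted p = 0.00561). With scaling to mesenchymal genes 6 of the 10 genes and 62.7% of all genes differed between these lines. Between the Tfam and Cox10 lines the difference was -0.14 (95% confidence interval -0.65 to 0.36, adjusted p = 0.984 by limma) against a background of 0.055%. For the other 9 genes the falls that were larger for the Rptor than the Tfam deletion, such as those of Cnn1, Actg2 and Myh11, did not pass the test of the difference under the deposited scaling.

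Of the 10 genes, 7 deviated together between lungs of the same group. After each group mean was taken off on the log2 scale, the correlation of a gene with the mean of the other 9 over the 18 samples was 0.93 for Tagln, 0.90 for Cnn1, 0.87 for Myh11, Lmod1 and Actg2, 0.83 for Myl9 and 0.80 for Myocd. It was 0.48 for Des, 0.21 for Acta2 and -0.23 for Smtn. Myh11 and Actg2 formed the closest pair, at 0.97, and Acta2 went with Des, at 0.76, with Tagln, at 0.52, with Smtn, at 0.44, and with Myl9, at 0.39, but not with Myh11, at -0.07. These correlations are descriptions in which all genes of a sample share its library and its dissection. Single lungs stood out in step with this. Rptor-deficient replicate 1 held the highest value of its group for 9 of the 10 genes and replicate 3 the lowest for 7. Cox10-deficient replicate 1 held the highest value for 7 genes, and 4 of the 10 genes passed in the Cox10 line when it was left out, against 0.547% of all genes. Rptor control replicate 1 was the highest control for 9 genes and Cox10 control replicate 1 for 7.

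**Figure D3:**
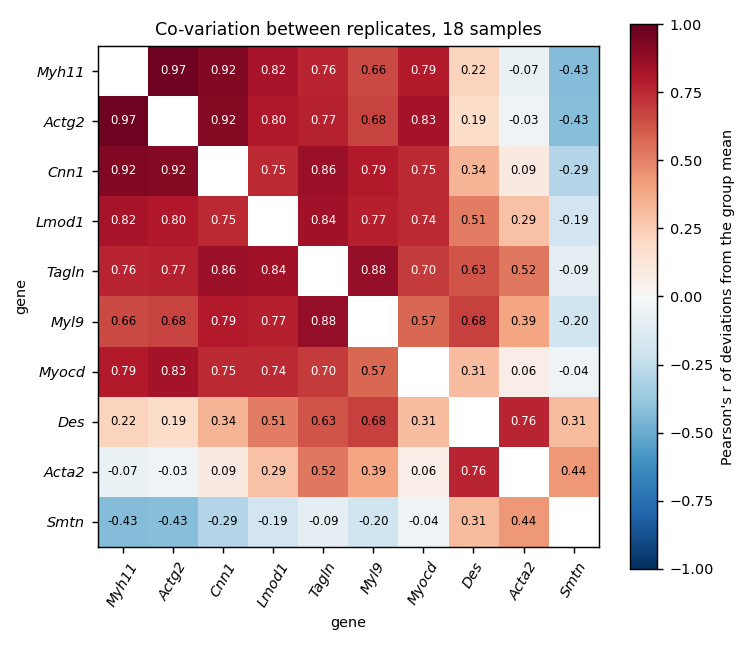
Pearson correlation between pairs of the 10 genes of their log2 values after the group mean was taken off, over 18 samples in 6 groups, with both axes listing the genes. Myh11, Actg2, Cnn1, Lmod1, Tagln, Myl9 and Myocd deviated together, while Acta2 ranged from -0.07 with Myh11 to 0.52 with Tagln among them and Smtn was below 0 with all 7.

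Other genes of the contractile apparatus passed at shares near or below those of all genes. Of 20 other contractile and cytoskeletal genes, 4 rose and 1 fell in the Rptor line, 1 fell in the Tfam line and none passed in the Cox10 line, against 34.8%, 4.66% and 0.475% of all genes (limma; 3 at an unadjusted p below 0.05, which 45.6%, 17.4% and 13% of all genes reached in the Rptor, Tfam and Cox10 lines), and their median log2FC values were -0.043, -0.096 and -0.074. Nexn, an actin-binding protein of muscle, had 3963, 3714 and 4185 normalised reads in Rptor controls and 2718, 2356 and 2050 in Rptor-deficient lungs. It fell by 0.74 on the log2 scale in the Rptor line (adjusted p = 0.000962 by limma) and by 0.46 in the Tfam line (adjusted p = 0.00230 by limma), and in the Cox10 line its change of -0.41 was without overlap but did not pass (adjusted p = 0.0662 by limma). The 4 that rose in the Rptor line, Ppp1r14a (0.39), Csrp1 (0.37), Tpm1 (0.28) and Mylk (0.24), all reversed with scaling to mesenchymal genes. This scaling moved the median of all genes in the Rptor line to -0.85, so that smaller rises reversed in any gene. Ppp1r14a encodes an inhibitor of myosin phosphatase, Mylk the myosin light chain kinase and Tpm1 a tropomyosin. Of 12 transcriptional regulators of smooth muscle tested, 3 rose in the Rptor line, and none passed in the Tfam and Cox10 lines (limma; 2 and 4 at an unadjusted p below 0.05). They were Gata6 (0.72), Mef2c (0.39) and Mkl2 (0.34), and all 3 reversed with scaling to mesenchymal genes. Srf, the partner of Myocd, had log2FC values of -0.048, -0.20 and -0.15 (adjusted p = 0.790, 0.119 and 0.348 by limma), and its paired cofactor Mkl1 -0.064, -0.21 and 0.0098, none of which passed.

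Signals that pass between epithelium and muscle progenitors went in both directions. Of all genes, 16.6% rose and 18.2% fell for the Rptor deletion, 2.03% and 2.63% for Tfam, and 0.141% and 0.335% for Cox10. Of 17 such genes, 4 rose and 6 fell in the Rptor line, 2 rose and 5 fell in the Tfam line, and 1, Tgfb2, fell in the Cox10 line by 0.33 on the log2 scale (adjusted p = 0.0265 by limma). Shh, the epithelial ligand that induces smooth muscle, had 1256, 1266 and 1207 normalised reads in Rptor controls and 990, 1123 and 1065 in Rptor-deficient lungs. It had 980, 898 and 882 in Tfam controls and 483, 624 and 599 in Tfam-deficient lungs. The log2FC values were -0.23 (adjusted p = 0.0303 by limma) and -0.70 (adjusted p = 0.00220 by limma), and in the Cox10 line -0.70 (adjusted p = 0.134 by limma). Of the genes that rose in this list, Bmp4 and Pdgfra reversed with scaling to mesenchymal genes in the Rptor line. This scaling moved the median of all genes there to -0.85, so that smaller rises reversed in any gene. Fgf10, a mesenchymal growth factor, rose by 1.87 and 0.93 in the Rptor and Tfam lines. Sfrp1, an extracellular Wnt inhibitor, rose by 0.92 in the Rptor line. Pdgfa and Wnt7b, which encode epithelial ligands, fell by 0.99 and 0.78 in the Rptor line. The 7 genes of the epithelial list had a median log2FC of -1.34 for Rptor, -0.29 for Tfam and -0.43 for Cox10. Shh, Pdgfa and Wnt7b thus fell by less than that median with the Rptor deletion. Shh was lower by more than it with Tfam and Cox10. Whether the changes in these ligands follow the amount of epithelial RNA was not tested. Hhip, a Hedgehog target, fell by 0.66 in the Tfam line. Of 8 receptor and marker genes reported in airway smooth muscle, 4 rose and 1 fell in the Rptor line, 2 rose and 1 fell in the Tfam line, and none passed in the Cox10 line (limma; 3 at an unadjusted p below 0.05). Lgr6, a receptor that marks airway smooth muscle cells, had 192, 172 and 156 normalised reads in Rptor controls and 80.6, 95.1 and 68.2 in Rptor-deficient lungs. Lgr6 fell by 1.09 in the Rptor line (adjusted p = 0.00175 by limma) and by 0.92 in the Tfam line (adjusted p = 0.00137 by limma). The members that rose were Itga8, an integrin of mesenchymal cells (1.36 and 0.46 in the Rptor and Tfam lines), and Chrm3, a muscarinic receptor (1.05 and 0.90), with Chrm2 (1.12) and Eln (0.46) in the Rptor line, of which Eln reversed with scaling to mesenchymal genes.

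Genes of neighbouring cell types passed mostly in the Rptor line. Their counts stand against 16.6% of all genes higher and 18.2% lower for Rptor, 2.03% and 2.63% for Tfam, and 0.141% and 0.335% for Cox10. An unadjusted p below 0.05 was reached by 17.4% of all genes for Tfam and 13% for Cox10. In the Rptor line 7 of 10 genes of vascular smooth muscle and pericytes rose and none fell, led by Rgs5 (1.68), Kcnj8 (0.87) and Abcc9 (0.82), and 5 of the 7 (Abcc9, Cspg4, Ndufa4l2, Notch3 and Pdgfrb) reversed with scaling to mesenchymal genes. Here and below, this scaling moved the median of all genes in the Rptor line to -0.85, so that smaller rises reversed in any gene. The vascular genes summed to 17229 to 18085 normalised reads in Rptor controls and 23140 to 23868 in Rptor-deficient lungs. In the Tfam line 2 of 9 rose, Ndufa4l2 (0.40) and Kcnj8 (0.36), and in the Cox10 line none of 9 passed (limma; 3 at an unadjusted p below 0.05). Of 10 genes of the general mesenchyme, 9 rose in the Rptor line and 1, Lum, in the Tfam line, and none passed in the Cox10 line (limma; 3 at an unadjusted p below 0.05). Lum (1.92), Dcn (1.44) and Col1a1 (1.14) led in the Rptor line. Scaling to the list itself brings its mean to the same level in every sample. The 4 of the 9 that then reversed are therefore those with the smaller rises. Among 7 epithelial genes 6 fell in the Rptor line, led by Cdh1 (-1.89), Sftpc (-1.86) and Krt8 (-1.35), and 2 fell in the Tfam line, Cdh1 (-0.55) and Cldn6 (-0.29), and none passed in the Cox10 line (limma; 5 at an unadjusted p below 0.05). The summed level of the epithelial genes was 34813 to 41084 normalised reads in Rptor controls and 12778 to 19050 in Rptor-deficient lungs, 32100 to 33929 and 23971 to 28289 in the Tfam line, and 21558 to 21949 and 14151 to 22211 in the Cox10 line. Of 5 cartilage genes tested, 3 fell with the Rptor deletion, 2 with Tfam and 1 with Cox10. Col11a2, a cartilage collagen, fell by 1.29, 0.75 and 0.65, and Col2a1 was lower by a log2FC of -1.43 and -0.72 in the first 2 lines. In the Rptor line 5 of 6 endothelial genes, 4 of 6 mesothelial genes and 2 of 3 blood and immune genes rose, and none of these passed by limma in the other lines (2, 2 and 2 at an unadjusted p below 0.05 in the Tfam line and 0, 1 and 1 in the Cox10 line). The 5 endothelial genes, led by Tie1 (0.49), Cdh5 (0.42) and Tek (0.35), reversed with scaling to mesenchymal genes. Lrrn4 (1.12), Wt1 (1.08) and Upk1b (0.93) led the mesothelial genes, of which Upk3b reversed with scaling to mesenchymal genes, and Csf1r (0.93) and Ptprc (0.77) were the blood and immune genes that rose, of which Ptprc reversed under that scaling. The globin gene Hba-a1 and the cartilage gene Matn1 were near 0, with group means of at most 0.657 and 1.65 normalised reads. The part of these cell types in the smooth muscle results was not tested.

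Heart muscle genes varied widely between lungs. Their summed level was 1034 to 3548 normalised reads in Rptor controls and 1448 to 2641 in Rptor-deficient lungs, 4423 to 11395 and 7366 to 21536 in the Tfam line, and 1158 to 6304 and 1099 to 6165 in the Cox10 line. Of 8 heart genes tested in the Rptor line Myh7 alone passed, higher by 1.35, and of 11 in the Tfam line Nppa alone, higher by 2.29. None of 10 passed in the Cox10 line. Of all genes, 34.8%, 4.66% and 0.475% passed in the Rptor, Tfam and Cox10 lines. Skeletal muscle genes were low, with sums of 260 to 953 normalised reads over all samples. Of 7 genes of that list tested, Tnnt3 (1.08) and Myh8 (1.22) rose and Ckm (-1.89) and Mylpf (-0.87) fell in the Rptor line. Of 9 tested in the Tfam line Myh8 (1.42) alone passed, and none of 8 passed in the Cox10 line. Between lungs of the same group, the mean of the 10 smooth muscle genes correlated with the heart list at 0.52, with the other contractile genes at 0.86 and with the epithelial list at -0.73 over 18 samples. It correlated at 0.72 with the regulators, 0.67 with the receptors and markers, 0.61 with the signals and -0.64 with the blood and immune genes. Taken relative to the controls of each line instead, the correlation with the epithelial list was 0.53. Between lungs of the same group, the correlation with the heart list was 0.62 for Myl9, 0.61 for Cnn1 and 0.12 for Acta2. With the mean of the heart list as a covariate, an alternative chosen after the data were seen, 6 of the 10 genes passed in the Rptor line, without Acta2 (adjusted p = 0.0714), against 28.1% of all genes. In the Tfam line 7 passed, Cnn1 among them (adjusted p = 0.00290), against 4.37%, and in the Cox10 line none did, against 0.221%, with Myocd at an adjusted p of 0.0550.

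**Figure D4:**
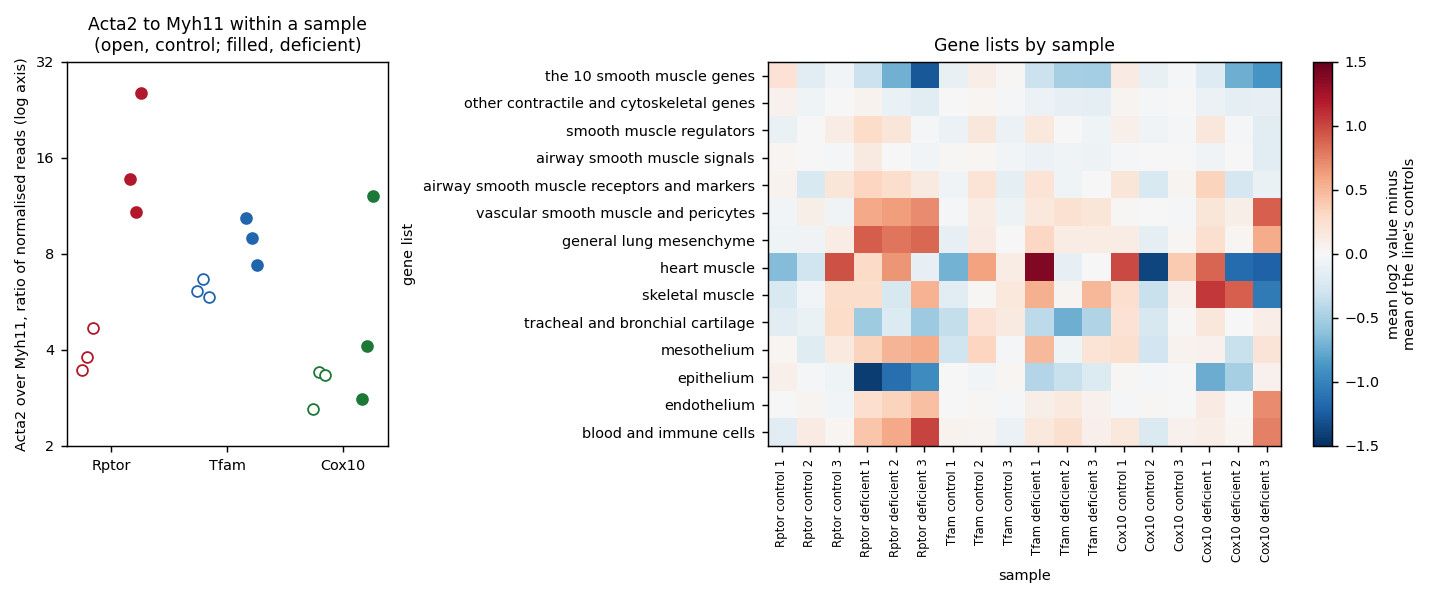
Left, the ratio of Acta2 to Myh11 normalised reads in each sample on a log axis, from 2.61 in a Cox10 control to 25.5 in Rptor-deficient replicate 3. Right, the mean log2 value of each gene list in each of the 18 samples minus the mean of the controls of its line, in which the heart list varies among replicates and the epithelial list is lowest in the Rptor-deficient lungs.

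Genes whose pattern was most like the mean of the 10 were sought among 12826 other genes over the 18 samples. When each value was taken relative to the controls of its line, the highest correlations included those of Fmn1 (0.94), Sqle (0.90), Fdft1 (0.90), Cdh4 (0.90), Adamtsl2 (0.89) and Arvcf (0.89). Sqle and Fdft1 encode enzymes of cholesterol synthesis, and Fmn1 encodes formin 1, an actin nucleator. The genes were chosen for this pattern, so no test of deficient against control lungs is given for them. When the group means were taken off, the highest were Ncrna00085 (0.94), Camk2d (0.94), Snhg11 (0.92), Mpped2 (0.90), Lss (0.90), Srebf2 (0.89), Neurl4 (0.89) and Ephb3 (0.88). Lss is a further enzyme of cholesterol synthesis and Srebf2 a transcription factor of that pathway. These genes were picked out of the genes named above, and the share of that pathway among all genes was not tested.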

How the data were processed

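Whole lungs at 14.5 dpc were profiled by RNA-seq, 3 deficient and 3 littermate control lungs in each of 3 lines, with mutants taken from different litters. The submitters' processing notes name Trim Galore, HISAT2, featureCounts, DESeq2 and the mm10 build. Versions, annotation and strand setting are not given in the sources used here. For each line the authors deposited a normalised signal, read counts over a size factor for each sample, whose values were multiples of a step of 0.978 to 1.02. Their fold change and p-value columns were not used. Groups and replicate numbers come from the titles. Of 23420 rows per table, 2 date-like symbols, each on more than 1 row, were left out.

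Values were analysed as log2(value + 1), which understates the change of low genes. Genes that reached 10 in 3 or more of the 6 samples were tested in limma 3.58.1 (R 4.3.3, eBayes with trend), two-sided, with Benjamini-Hochberg adjustment over all genes tested and a threshold of 0.05, each line alone. Differences between lines were tested in a fit of 18 samples and 6 groups. The limma fits, not the step of the values, were checked on simulated counts with known changes. The labels do not say which lungs share a litter. In the Rptor line, same-numbered samples deviated from their group means with correlations of 0.221, 0.330 and 0.259, so the numbers were taken to pair the samples there. The closest pair of samples still differed by more than sampling noise (chi-square of 4.11 per gene), so no library was counted as a duplicate. The p-values measure the spread between these samples.

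The 10 genes and the other lists were chosen with earlier results of these data known. Beside the 10 genes, the text names up to 3 genes per list and line with the largest change past the threshold, Srf and Mkl1 (chosen as partners of Myocd after their values were seen), and the 8 genes most like the mean of the 10, with a mean value of at least 50, of which some are not reported here. Further listed genes, such as Wnt7b, are named outside that rule, some of them to complete a count. Promoter windows come from RefSeq (GRCm38.p6) and exons from GENCODE. Alternatives were the pseudocount (0.1, 5), the filter, the scaling (library totals, trimmed mean of M-values, mesenchymal genes), the replicate block, eBayes without trend, a threshold of 0.01, all 18 samples in one fit, leaving out each sample, and the heart list as a covariate.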

Additional observations from a re-analysis of the deposited data

Results flagged for a closer look

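The effect on Acta2 differed between the Rptor and Tfam lines by 0.81 on the log2 scale (limma, 18 samples in 6 groups, adjusted p = 0.0374). Of all genes, 11.2% differed between these lines, near the share that Acta2 alone makes of the 10 genes. The call held in 11 of 18 fits without a sample and was lost without a trend in eBayes. Under the deposited scaling Acta2 was higher in Rptor-deficient lungs by 0.47 and had a log2FC of -0.34 in Tfam-deficient lungs. With scaling to mesenchymal genes the Rptor value reversed to -0.39, the Tfam value was -0.52 and the difference did not pass.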

How the results depend on the processing

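Pseudocounts of 0.1 and 5, a mean filter of 50, library totals and the trimmed mean of M-values changed no call of the 10 genes in any line. The planned tests on read counts recovered from the steps of the values were not run here. Where a result below differs between settings, the cause was not tested. With scaling to mesenchymal genes 12735 and 225 genes passed in the Rptor and Cox10 lines (5203 and 71 in the main analysis), 6 of the 10 genes passed in the Cox10 line, and 9 and 6 differed between the Rptor line and the Tfam and Cox10 lines. Under it Acta2 (-0.39) and Des (-0.81) in the Rptor line, Des (-0.017) and Smtn (-0.23) in the Cox10 line, and Myocd between the Rptor and Cox10 lines (-0.21) reversed. Without a trend in eBayes 3 and 0 of the 10 genes passed in the Rptor and Cox10 lines, 452 and 43 genes passed in the Tfam and Cox10 lines, and 0 of the 10 differed between the Rptor and Tfam lines. At an adjusted p below 0.01, 2719, 315 and 15 genes passed in the Rptor, Tfam and Cox10 lines, among them 2, 4 and 0 of the 10. With all 18 samples in one fit 399 and 327 genes passed in the Tfam and Cox10 lines, and 1 of the 10 in the Tfam line. Without a filter 6, 5 and 1 of the 10 and 25.7%, 3.09% and 0.338% of all genes passed, Acta2 being lost in the Rptor and Tfam lines. With the heart list as a covariate 33 genes and 0 of the 10 passed in the Cox10 line.

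Leaving out a sample gave 3558 to 5316 genes in the Rptor line, 354 to 1113 in the Tfam line and 3 to 255 in the Cox10 line. Of the 10 genes, 4 to 7, 4 to 7 and 0 to 4 passed, and 0 to 1, 0 to 1 and 0 differed between the Rptor and Tfam, the Rptor and Cox10, and the Tfam and Cox10 lines. The counts were lowest without Rptor control replicate 2, Tfam-deficient replicate 3 and Cox10 control replicate 1 (3 genes, as without control replicate 3). Directions that reversed belonged to values that did not pass. Des in the Rptor line ranged from -0.050 to 0.14 (-0.042 without control replicate 2), Smtn from -0.074 to 0.0055 there and from -0.0043 to 0.073 in the Cox10 line, and Myl9 in the Tfam line from -0.28 to 0.013 (0.00070 without control replicate 3). Myocd between the Rptor and Tfam lines ranged from -0.28 to 0.18 (0.025 without Rptor control replicate 1, 0.022 without Tfam control replicate 3 and 0.0077 without Tfam-deficient replicate 2), and Acta2 between the Tfam and Cox10 lines from -0.33 to 0.091.

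Under the replicate block 5766, 802 and 48 genes and 8, 6 and 1 of the 10 passed in the Rptor, Tfam and Cox10 lines, and 1 of the 10, Acta2, differed between the Rptor and Cox10 lines. Beyond Myl9 in the Rptor line and this difference, the block changed no call of the 10 genes. Same-numbered samples deviated with correlations of -0.312, -0.207 and 0.151 in the Tfam line and 0.447, 0.202 and 0.0487 in the Cox10 line. Not every sample correlated best with its own number in either line, so the numbers were not taken to pair samples there. In the Cox10 line the margins were small, 0.202 against 0.211 for control replicate 2 and 0.0487 against 0.0548 for control replicate 3. Whether these samples are paired is not known from the labels. The number of samples, 3 a group, and the low counts of Lmod1 limit these results.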
